A study of Drosophila melanogaster with 12 samples.

Results

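The Yellow family of Drosophila melanogaster was followed in 12 RNA-seq libraries of whole heads. The members are the genes y, yellow-b, yellow-c, yellow-d, yellow-d2, yellow-e, yellow-f, yellow-f2, yellow-h and yellow-k, found by symbol among the 23793 rows of the raw count table. All 10 had a row, and 9 had enough counts to be tested. The exception was yellow-k.

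Yellow proteins are secreted proteins related to the major royal jelly proteins of the honeybee. The founding gene, y, is needed for black melanin in the cuticle and bristles of the fly, and its loss gives a yellow body. Melanin is made from dopa and dopamine, which the epidermis derives from tyrosine, and other branches of the same chemistry harden the cuticle or give it tan colours.

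All libraries came from heads of male flies at the age of 3 days, with RNA pooled from 50 heads in each replicate. Every fly carried the nSyb driver, which is active in neurons throughout the nervous system, and a hairpin RNA under its control. The hairpin was directed against mCherry (nSyb>mCherry IR, called NTC IR-1), Luciferase (nSyb>Luciferase IR, NTC IR-2), dYEATS2 (nSyb>dYEATS2 IR, dYEATS2-IR) or dENL/AF9 (nSyb>dENL/AF9 IR, dENL/AF9-IR), with 3 libraries in each of the 4 groups. mCherry and Luciferase are not fly genes, so those hairpins serve as controls. Each hairpin was carried by a single group, so a hairpin and any other difference between the groups cannot be told apart. The words knockdown effect are used below only for a difference between a group and its numbered control. In the titles of the dENL/AF9-IR and NTC IR-2 samples the word young is added, although the stated age is the same. No allele of y or of another body-colour gene is given in the labels. The driver is neuronal, whereas the cells that make cuticle are epidermal. Both kinds of cell are part of a head.

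The libraries held 30298251 to 54132559 counts. The names of the groups were those of the raw count table, and the deposited normalized table attaches other names to the same columns: what is called dYEATS2-IR here is called NTC IR-2 there, dENL/AF9-IR is called dYEATS2-IR, NTC IR-2 is called NTC IR-1, and NTC IR-1 is called dENL/AF9-IR. The targeted genes did not settle the names. D12, the fly gene of dYEATS2, differed between dYEATS2-IR and NTC IR-1 by a log2 fold change of -0.03 (adjusted p-value 0.919 in edgeR's quasi-likelihood test), and ear, the fly gene of dENL/AF9, differed between dENL/AF9-IR and NTC IR-2 by -0.05 (adjusted p-value 1). The NTC IR-1 libraries, called dENL/AF9-IR in the normalized table, each had less ear than any library of the other groups. In edgeR's quasi-likelihood test ear was 0.39 higher in NTC IR-2 than in NTC IR-1 (adjusted p-value 0.0401). There 19.5% of all rows were below 0.05. Against NTC IR-1 it was 0.23 higher in dYEATS2-IR (0.281) and 0.34 higher in dENL/AF9-IR (0.0697). D12 was not below 0.05 in any pair. Which names are right was not tested. Markers of neurons, photoreceptors, glia, fat body and haemocytes were all detected, as were all but 13 of 97 rows for cuticle proteins of the Cpr and Twdl families. The summed level of those rows, in counts per 1000000 of the scaled library (CPM), was 1682 to 1845 in NTC IR-1, 1460 to 1778 in dYEATS2-IR, 1268 to 1795 in NTC IR-2 and 1125 to 1411 in dENL/AF9-IR. Every statement below on a group holds for the libraries that the count table gives to it.

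The gene y (FBgn0004034) lies near the tip of the X chromosome at X:356509-361245 on the plus strand of BDGP6.54, with 2038 bp of exons. It was the member with the highest level in 3 of the 4 groups and nearly absent from the other. Its level in NTC IR-1 was 180.1, 187.9 and 142.3 CPM. In NTC IR-2 it was 183.3, 213.3 and 122.7 CPM. The control groups overlapped, and the range of NTC IR-1 lay within the wider range of NTC IR-2. In dENL/AF9-IR the level was 31.7, 33.3 and 67.0 CPM, and all 3 libraries were below every control library. In dYEATS2-IR it was 0.176, 0.371 and 0.421 CPM, which stood for 6, 12 and 15 counts. No dYEATS2-IR library came near any library of another group.

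**Figure D1:**
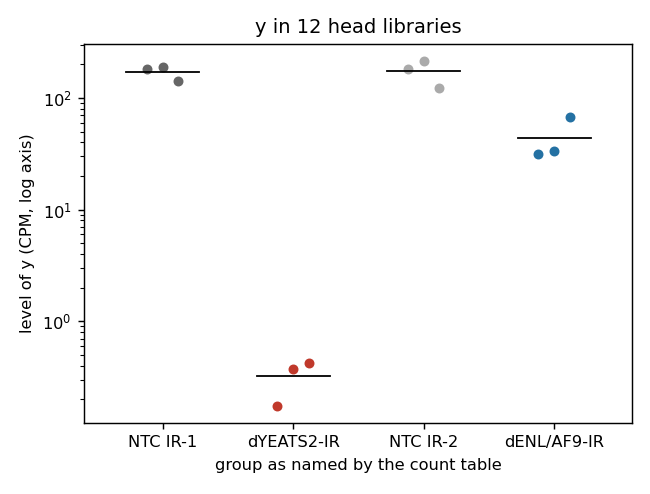
Level of y in each of the 12 libraries, in CPM on a log axis, with 1 point per library and a bar at the mean of each group. The 3 dYEATS2-IR libraries lie between 0.176 and 0.421 CPM, the 3 dENL/AF9-IR libraries between 31.7 and 67.0, and the control libraries between 122.7 and 213.3.

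The group means of y were 170.1 ± 24.4 CPM (SD, n = 3) in NTC IR-1, 173.1 ± 46.2 in NTC IR-2, 44.0 ± 19.9 in dENL/AF9-IR and 0.323 ± 0.130 in dYEATS2-IR. In order from low to high the groups were dYEATS2-IR, dENL/AF9-IR, NTC IR-1 and NTC IR-2, and only the last pair overlapped. Of the variance of y between libraries in log2 CPM (prior count 2), 98.9% lay between groups, against a median of 48.0% over all rows tested. Fewer cells that make y and less y RNA per cell cannot be told apart in whole heads. The replicates were pools of heads, and nothing in the labels ties a replicate to a separate cross or culture, so the p-values measure the spread between these libraries, which may in part be technical.

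Against its numbered control NTC IR-1, y fell by 9.03 on the log2 scale in dYEATS2-IR (SE 0.452), a level 522-fold lower. The FDR, the Benjamini-Hochberg adjusted p-value of edgeR's quasi-likelihood test, was 8.29e-07. Ordered by p-value it was row 5 of the 12661 tested. Its difference from NTC IR-2 was almost the same, -9.05 (SE 0.452, FDR 1.24e-06). Both contrasts share the dYEATS2-IR libraries. The call held under all 12 alternatives of the first contrast, in which the log2 fold change ranged from -9.27 to -8.73 when 1 library was left out. Those alternatives all kept the group names of the count table. That y passed the filter on low counts at all was owed to the other 3 groups.

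In dENL/AF9-IR the difference of y from its numbered control NTC IR-2 was -1.98 on the log2 scale (SE 0.303, 95% interval -2.64 to -1.31), a level 3.94-fold lower. Its unadjusted p-value was 3.72e-05, the fourth lowest of all rows, and the adjusted p-value was 0.118, so y was not called in that contrast, where no row of the table was. DESeq2's Wald test gave y an adjusted p-value of 2.69e-07. Leaving out single libraries moved the adjusted p-value between 0.0136 and 0.744, and y was called without NTC IR-2 replicate 3 (FDR 0.0258) and without dENL/AF9-IR replicate 3 (FDR 0.0136, log2 fold change -2.41). Those are the control library with the lowest y and the dENL/AF9-IR library with the highest. Against the other control, NTC IR-1, y fell by 1.95 in dENL/AF9-IR (SE 0.303, FDR 0.00428), a level 3.87-fold lower. That call held under all 12 alternatives, which also kept the group names of the count table.

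The control groups differed in y by 0.02 on the log2 scale (SE 0.292, FDR 0.963), with a 95% interval from -0.62 to 0.67. Between the knockdown groups, y was 135-fold lower in dYEATS2-IR than in dENL/AF9-IR, a log2 fold change of -7.08 (SE 0.430, FDR 7.11e-06). The difference between both knockdown effects, each against its numbered control, was -7.05 (SE 0.517, FDR 4.54e-05). It was called under all 18 alternatives. Under the group names of the normalized table the numbered pairs hold the same libraries, but dYEATS2-IR is then 3.94-fold lower in y than NTC IR-1, dENL/AF9-IR is 522-fold higher than NTC IR-2, and the difference between the effects is -11.00.

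Levels of different members were compared per kilobase of exon. Among 12466 tested genes y had rank 603 in NTC IR-1 at 83.5 CPM per kb and rank 641 in NTC IR-2 at 84.9. It had rank 2488 in dENL/AF9-IR at 21.6 CPM per kb and rank 11472 in dYEATS2-IR at 0.158. Of the other members, averaged over all 12 libraries, yellow-c had 13.7 and yellow-h 13.5 CPM per kb. The middle of the family was made up of yellow-e at 9.20, yellow-d2 at 8.92, yellow-f2 at 5.81, yellow-d at 5.80 and yellow-b at 4.53 CPM per kb. yellow-f had 1.04 CPM per kb, and yellow-k had 0.0191. The order varied between groups: in NTC IR-1 yellow-h came first, followed by yellow-e, yellow-c, yellow-d and yellow-d2, whereas yellow-c came first in NTC IR-2 and dYEATS2-IR. Of the summed level per kb of the family, y made up 46.7 to 61.4% in the libraries of NTC IR-1 and 39.8 to 67.1% in NTC IR-2. Its share was 20.003 to 33.0% in dENL/AF9-IR and 0.126 to 0.433% in dYEATS2-IR. In dYEATS2-IR the mean of y per kb was below that of all the other tested members, and yellow-c led with 12.3 CPM per kb.

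Without y, the summed level of the family overlapped between all groups. It was 93.4 to 127 CPM in NTC IR-1, 74.5 to 108 in dYEATS2-IR, 70.9 to 145 in NTC IR-2 and 99.0 to 106 in dENL/AF9-IR.

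Beside y, yellow-d was the only member called in any pair of groups. It lies at 2R:23378573-23380438 on the plus strand (FBgn0041712). Its level was 19.0, 16.3 and 13.6 CPM in NTC IR-1 and 8.99, 4.02 and 8.19 CPM in dYEATS2-IR. It was 9.30, 9.43 and 9.41 CPM in NTC IR-2 and 5.79, 6.93 and 11.0 CPM in dENL/AF9-IR. All 3 libraries of NTC IR-1 were above the 9 others, which overlapped except that every dYEATS2-IR library was below every NTC IR-2 library.

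yellow-d fell by 1.203 on the log2 scale in dYEATS2-IR against NTC IR-1 (SE 0.293, FDR 0.0416). The call ended with no filter on low counts (-1.23, FDR 0.0546), with the replicate number as a block (-1.25, FDR 0.0632) and with the 6 compared libraries alone (-1.22, FDR 0.0753). Leaving out single libraries kept it in 1 of 6 cases, the one without NTC IR-1 replicate 3, with adjusted p-values from 0.0334 to 0.143. In dENL/AF9-IR it fell by 1.05 against the same control (SE 0.290, FDR 0.0341), a call kept in 2 of 6 cases, without NTC IR-1 replicate 3 and without dENL/AF9-IR replicate 3, with adjusted p-values from 0.0154 to 0.124. Its difference between the control groups was -0.80 (FDR 0.0750). These 3 contrasts share the libraries of NTC IR-1. Against its own numbered control NTC IR-2, dENL/AF9-IR differed in yellow-d by -0.25 (FDR 1). The gene lies within CG13551, which is on the other strand, with no shared exon. CG13551 fell by 0.46 in NTC IR-2 (FDR 0.0118) and by 0.49 in dENL/AF9-IR (FDR 0.0126) against NTC IR-1, and its difference in dYEATS2-IR was -0.35 (FDR 0.0764). The library kit keeps strand, but whether the counting used it is not given in the sources used here, and a part of CG13551 reads in yellow-d counts was not tested.

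The tandem partner of yellow-d is yellow-d2 (FBgn0034856, 2R:23381197-23382591), which starts 758 bp further along on the same strand with no gene between them. yellow-d2 also lies within CG13551 without a shared exon, and a part of CG13551 reads in its counts was not tested either. yellow-d2 was at 10.8, 12.1 and 13.8 CPM in NTC IR-1 and at 15.8, 11.98 and 11.5 CPM in dYEATS2-IR. In NTC IR-2 it was at 5.69, 12.6 and 13.8 CPM, and in dENL/AF9-IR at 12.5, 11.2 and 11.9 CPM. The groups overlapped, and yellow-d2 was not called in any pair. Its log2 fold change against NTC IR-1 was 0.10 in dYEATS2-IR (SE 0.264) and -0.05 in dENL/AF9-IR (SE 0.263). The ratio of yellow-d to yellow-d2 per kb was 1.05 ± 0.299 (SD, n = 3) in NTC IR-1, 0.414 ± 0.146 in dYEATS2-IR, 0.782 ± 0.407 in NTC IR-2 and 0.513 ± 0.180 in dENL/AF9-IR. The lowest NTC IR-1 library had a ratio of 0.754, above the highest of dYEATS2-IR at 0.547.

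**Figure D2:**
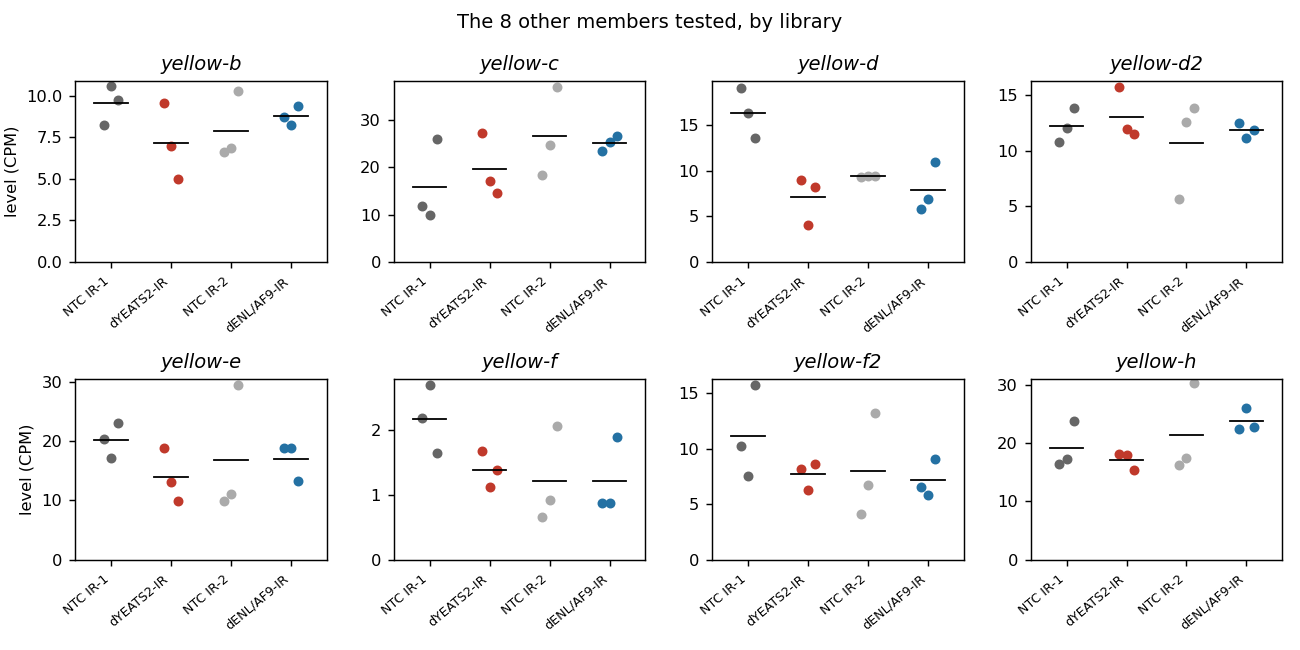
Levels of the 8 other tested members in each library, in CPM, 1 panel per member with points for the 3 libraries of each group and a bar at the group mean. The 3 NTC IR-1 libraries of yellow-d lie between 13.6 and 19.0 CPM, above its 9 other libraries, and in the other members the groups overlap in most pairs.

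yellow-f and yellow-f2 encode dopachrome-conversion enzymes, which catalyse a step of melanin formation. They lie 193 bp apart on the minus strand at 3R:12991449-12993201 (FBgn0041710) and 3R:12993395-12995147 (FBgn0038105). yellow-f had 2.18, 2.68 and 1.64 CPM in NTC IR-1 and 1.67, 1.11 and 1.37 CPM in dYEATS2-IR. It had 0.652, 0.920 and 2.06 CPM in NTC IR-2 and 0.868, 0.880 and 1.88 CPM in dENL/AF9-IR. The highest libraries of the last pair of groups were replicate 3 in each, and the groups overlapped. yellow-f shares 95 bp of exon with CG31342 on the other strand, so its counts are uncertain. CG31342 had a mean of 52.2 CPM in NTC IR-1, and a part of its reads in yellow-f counts was not tested.

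yellow-f2 was the more abundant of the pair. It had 10.2, 7.57 and 15.7 CPM in NTC IR-1 and 8.20, 6.31 and 8.58 CPM in dYEATS2-IR. In NTC IR-2 it had 4.08, 6.74 and 13.2 CPM, and in dENL/AF9-IR 6.53, 5.84 and 9.06 CPM. All groups overlapped. The log2 fold change of dYEATS2-IR against NTC IR-1 was -0.64 for yellow-f (SE 0.442, FDR 0.435) and -0.54 for yellow-f2 (SE 0.382, FDR 0.456). Neither gene was called in any pair. The ratio of yellow-f2 to yellow-f per kb averaged 5.59 ± 3.42 in NTC IR-1, 5.52 ± 0.658 in dYEATS2-IR, 6.58 ± 0.589 in NTC IR-2 and 6.23 ± 1.37 in dENL/AF9-IR (SD, n = 3 each). The wide spread in NTC IR-1 came from single ratios of 2.78 and 9.41 in replicates 2 and 3. All these ratios rest on the uncertain counts of yellow-f.

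yellow-e, whose counterpart in the silkworm affects larval head and tail colour, lies at 3R:13409543-13415286 on the minus strand (FBgn0041711). Its level was 20.4, 17.1 and 23.0 CPM in NTC IR-1 and 18.8, 13.1 and 9.87 CPM in dYEATS2-IR. In NTC IR-2 it was 9.91, 11.0 and 29.5 CPM, and in dENL/AF9-IR 18.8, 18.8 and 13.3 CPM. NTC IR-2 held both the second lowest and the highest library of all 12. The log2 fold change was -0.53 for dYEATS2-IR against NTC IR-1 (SE 0.375, FDR 0.450) and 0.01 for dENL/AF9-IR against NTC IR-2 (SE 0.373, FDR 1). Without NTC IR-2 replicate 3, yellow-e fell by 0.94 in NTC IR-2 against NTC IR-1 (FDR 0.0393), and yellow-f fell by 1.46 (FDR 0.0479), whereas neither was called with it.

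yellow-c (FBgn0041713, 2L:15035394-15037841, plus strand) had 11.8, 9.91 and 26.0 CPM in NTC IR-1 and 27.2, 17.2 and 14.7 CPM in dYEATS2-IR. It had 18.5, 24.7 and 36.9 CPM in NTC IR-2 and 23.4, 25.3 and 26.7 CPM in dENL/AF9-IR. The groups overlapped, and the log2 fold changes against NTC IR-1 were 0.31 in dYEATS2-IR (FDR 0.677), 0.75 in NTC IR-2 (FDR 0.167) and 0.66 in dENL/AF9-IR (FDR 0.228). NTC IR-1 replicate 3 stood above the other libraries of its group, and without it yellow-c was called higher in NTC IR-2 (1.30, FDR 0.0143) and in dENL/AF9-IR (1.21, FDR 0.0203). Of its 1600 bp of exons, 1197 bp are shared with exons of CIAPIN1 on the other strand, so its counts are uncertain.

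yellow-h (FBgn0039896, on chromosome 4 at 227922 to 230428, plus strand) had 16.3, 17.3 and 23.7 CPM in NTC IR-1 and 18.2, 18.0 and 15.3 CPM in dYEATS2-IR. It had 16.3, 17.5 and 30.2 CPM in NTC IR-2 and 22.4, 26.1 and 22.7 CPM in dENL/AF9-IR. All dYEATS2-IR libraries were below all dENL/AF9-IR libraries, and the other pairs of groups overlapped. It was not called in any pair.

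yellow-b (FBgn0032601, 2L:16754336-16758283, plus strand) ranged from 5.02 CPM in dYEATS2-IR replicate 3 to 10.6 CPM in NTC IR-1 replicate 2. Its group means were 9.53 ± 1.199 CPM in NTC IR-1, 7.18 ± 2.27 in dYEATS2-IR, 7.89 ± 2.04 in NTC IR-2 and 8.77 ± 0.574 in dENL/AF9-IR (SD, n = 3 each). The groups overlapped and no pair was called. yellow-k (FBgn0036504, 3L:15520620-15521653, plus strand) had 11 counts in all 12 libraries together. It was at 0 in 9 libraries, where 3 counts, the limit that a count of 0 allows, would be 0.0598 to 0.103 CPM depending on the library. An antisense RNA on the other strand, asRNA:CR43159, shares 873 bp of its 1034 bp of exon. These limits cover counting error only.

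Counted over the 9 tested members, 2 were called in dYEATS2-IR against NTC IR-1, y and yellow-d, both lower. Of all rows, 4.77% were called in that contrast and 2.35% were called lower. The same 2 members were the ones with all dYEATS2-IR libraries below all control libraries, a pattern that 14.3% of all rows had. The median log2 fold change of the members was -0.53, and -0.47 without y, beside -0.02 over all rows, and 2 members had a positive value. The marker sums of photoreceptors and fat body did not overlap there, whereas those of neurons, glia, haemocytes and cuticle proteins did. The sum over 10 photoreceptor genes was 51393 to 58647 CPM in dYEATS2-IR, against 28143 to 42240 for the control. That over 9 fat body genes was 726 to 970 CPM against 1324 to 2665. edgeR's quasi-likelihood test called 5 of the photoreceptor genes, all higher, and 0 of the fat body genes, of which 4 had an unadjusted p-value below 0.05 and 2 were called by DESeq2's Wald test. The part of these markers in the members' values was not tested. When dENL/AF9-IR was set against NTC IR-1, y and yellow-d were again called lower, where 15.6% of all rows were called and 6.92% called lower. They were also the 2 members whose libraries did not overlap, a pattern in this direction that 19% of all rows had. There the median of the members was -0.25, beside -0.04 over all rows. The sum of the cuticle protein rows did not overlap there, at 1125 to 1411 CPM against 1682 to 1845 in NTC IR-1. Of the 48 such rows tested, 1 was called higher and 1 lower. The neuron sum, 5696 to 6665 CPM against 3469 to 4308, did not overlap either, whereas those of photoreceptors, glia, fat body and haemocytes did. The part of these sums in the members' values was not tested.

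Between dENL/AF9-IR and NTC IR-2, edgeR's quasi-likelihood test called 0 of 9 members, and 0% of all rows. At an unadjusted p-value below 0.05 there was 1 member, y, and DESeq2's Wald test also called 1, y. It was the 1 member with all dENL/AF9-IR libraries below those of the control, as 4.63% of all rows were. The median of the members was -0.03 on the log2 scale and that of all rows -0.00. Between the control groups edgeR's quasi-likelihood test called 0 of 9 members, where 19.5% of all rows were called and 9.16% were lower in NTC IR-2. There 1 member had an unadjusted p-value below 0.05, yellow-d, which DESeq2's Wald test called. It was the 1 member without overlap, as were 16.9% of all rows in this direction. The median of the members was -0.25 and that of all rows -0.04.

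Set against NTC IR-2, dYEATS2-IR had 1 member called, y, where 9.17% of all rows were called and 5.32% called lower. The 2 members whose dYEATS2-IR libraries were all lower were y and yellow-d, beside 14.9% of all rows. The median of the members was -0.28 on the log2 scale, and that of all rows 0.01. Marker sums did not overlap there for photoreceptors (51393 to 58647 CPM against 35622 to 47683), neurons (4105 to 5024 against 5476 to 6978) and haemocytes (112 to 181 against 76.9 to 109). Those of glia, fat body and cuticle proteins did, and the part of these sums was not tested. Set against dENL/AF9-IR, dYEATS2-IR again had 1 member called, y, where 4.94% of all rows were called and 2.99% called lower. The 2 members whose dYEATS2-IR libraries were all lower were y and yellow-h, beside 17.2% of all rows. There the median of the members was -0.29, and that of all rows 0.01. In that pair the sums of neurons (4105 to 5024 CPM against 5696 to 6665) and of cuticle proteins (1460 to 1778 against 1125 to 1411) did not overlap. The other marker sums overlapped, and the part of these sums was not tested. For the difference between the knockdown effects, y was the 1 member called, beside 0.932% of all rows, of which those with a negative difference made up 0.498% of all rows. The median of the members was -0.54, and that of all rows -0.01.

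**Figure D3:**
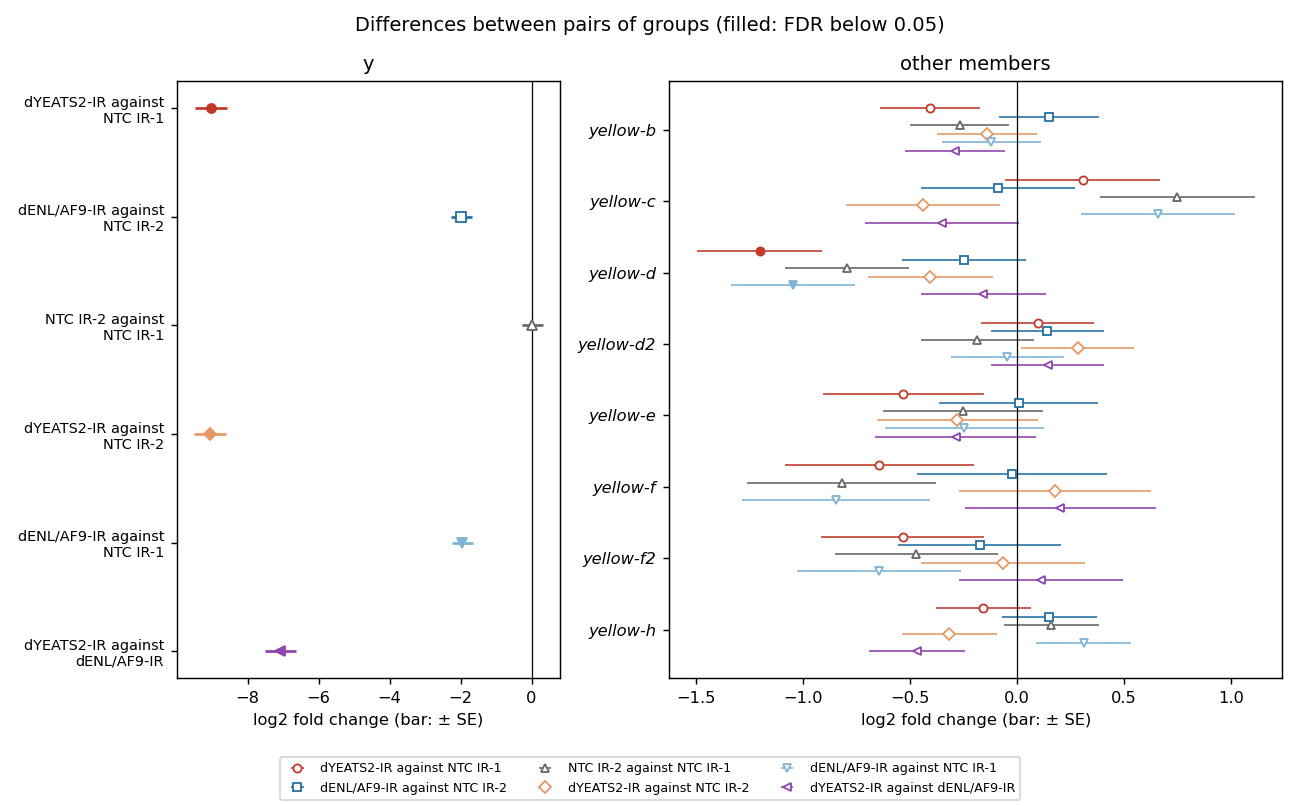
Log2 fold change of each tested member in the 6 pairs of groups, with bars of 1 SE either side and filled symbols where the FDR was below 0.05. y reached -9.05, the other members stayed between -1.203 and 0.75, and yellow-d was the only one of them with filled symbols.

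Libraries also differed within groups. For 7 of the 9 tested members NTC IR-2 replicate 3 was the highest library of its group, whereas for y it was the lowest. NTC IR-2 replicate 1 was the lowest library of its group for 8 members. The largest ratio of CPM between 2 libraries of a group was 3.23 for yellow-f2, 3.16 for yellow-f and 2.98 for yellow-e. For y it was 2.39, in dYEATS2-IR.

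Of the 13 tested genes of a list of pigmentation and cuticle tanning, 7 were highest within NTC IR-2 in its replicate 3 and 3 were lowest there, Ddc, PPO2 and svr. Among those that were highest were e and ple, picked after their values were seen. e, the enzyme that joins beta-alanine to dopamine for tan pigment, was at 26.7, 41.7 and 281 CPM in the libraries of NTC IR-2. ple, the tyrosine hydroxylase that makes dopa, was at 101, 98.8 and 391 CPM there. In NTC IR-1 the same genes had 58.8 to 82.6 CPM and 102 to 181 CPM. Ddc, the dopa decarboxylase, was at 343, 317 and 297 CPM in NTC IR-2. The summed level of the 97 cuticle protein rows in NTC IR-2 was 1795, 1268 and 1680 CPM, so its highest library was replicate 1. The part of this library in the results on the family was not tested beyond leaving it out.

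**Figure D4:**
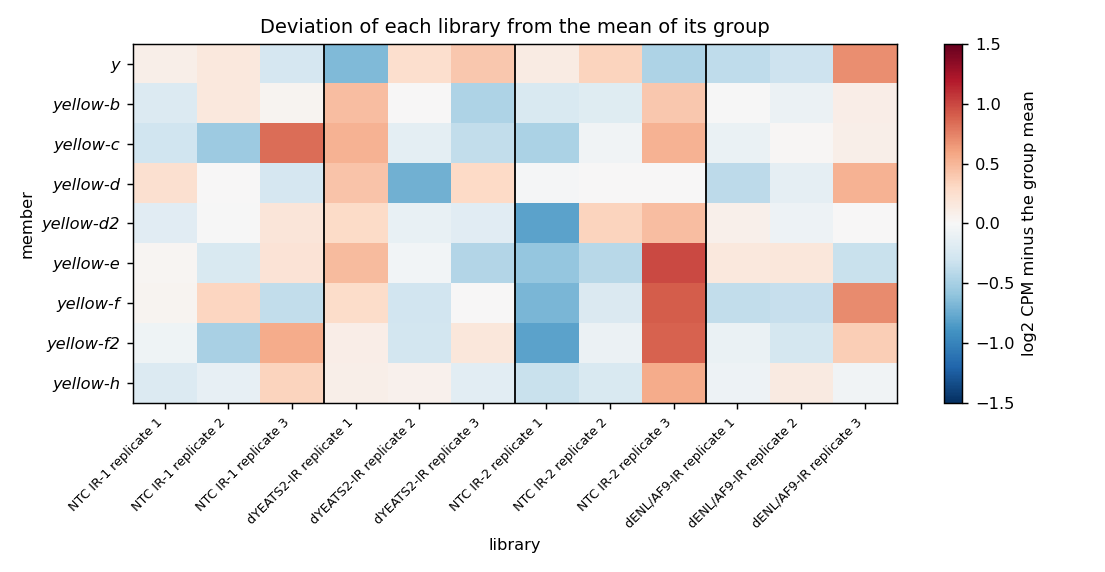
Difference of each library from the mean of its group, in log2 CPM, for the 9 tested members (rows) in the 12 libraries (columns). NTC IR-2 replicate 3 is above its group for most members and below it for y, and NTC IR-2 replicate 1 is below its group for 8 members.

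The list held 14 genes in all. In dYEATS2-IR against NTC IR-1, where 4.77% of all rows were called, 2 fell and 0 rose: PPO2, a prophenoloxidase of crystal cells, by 1.12 on the log2 scale (FDR 0.00761), and amd, a relative of dopa decarboxylase that acts in cuticle formation, by 1.03 (FDR 0.0430). The gene t, whose enzyme releases dopamine from its beta-alanine conjugate, had the largest log2 fold change of the list, 1.21, which was not called (FDR 0.0630). Its level was 155, 151 and 385 CPM in NTC IR-1 and 617, 507 and 470 CPM in dYEATS2-IR, without overlap. The median over the list was 0.01, beside -0.02 over all rows. The marker sums given above for photoreceptors and fat body did not overlap in this contrast either, and their part in these values was not tested. Between dENL/AF9-IR and NTC IR-2, edgeR's quasi-likelihood test called 0 of the 13, as did DESeq2's Wald test, and 1 had an unadjusted p-value below 0.05. That gene was PPO1, another prophenoloxidase, with a log2 fold change of 0.98 (FDR 0.650).

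Between the control groups 4 genes of the list were called, where 19.5% of all rows were. In NTC IR-2, Ddc rose by 0.72 (FDR 0.00543) and svr, a carboxypeptidase whose loss gives silvery cuticle, by 0.61 (FDR 0.00339), whereas PPO1 fell by 1.28 (FDR 0.0129) and Hn, the phenylalanine hydroxylase, by 0.66 (FDR 0.0124). Compared with NTC IR-1, dENL/AF9-IR had 3 calls, beside 15.6% of all rows, in which Ddc (0.61) and svr (0.45) rose and Hn fell by 0.51. Compared with NTC IR-2, dYEATS2-IR had 4 calls, beside 9.17% of all rows, in which Hn rose by 0.91, while Ddc fell by 0.64, svr by 0.51 and PPO2 by 0.67. Compared with dENL/AF9-IR it had 3, beside 4.94% of all rows, in which Hn rose by 0.76, while Ddc fell by 0.53 and PPO2 by 0.74. The summed level of the list spanned 1330 to 2013 CPM for NTC IR-1 and 1647 to 2098 in dYEATS2-IR. It was 1857 to 2680 CPM in NTC IR-2 and 1916 to 2061 in dENL/AF9-IR.

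Of 8 transcription factors known to act on y or on body colour in the fly, 7 were tested. In either knockdown against its numbered control, edgeR's quasi-likelihood test and DESeq2's Wald test called 0 of the 7. At an unadjusted p-value below 0.05 there were 2 in dYEATS2-IR and 1 in dENL/AF9-IR. fru was among them in both, with log2 fold changes of 0.34 and -0.32. The nuclear receptor Hr3 (0.67, FDR 0.0175), the sex-determination factor fru (0.56, FDR 0.00828) and the T-box factor bi (0.43, FDR 0.0126) rose in NTC IR-2 against NTC IR-1. Hr3 (0.70) and bi (0.35) also rose in dENL/AF9-IR against NTC IR-1. Markers of neurons moved in the same contrasts: 4 of 6 were higher in NTC IR-2 and 4 of 6 in dENL/AF9-IR than in NTC IR-1, where 19.5% and 15.6% of all rows were called, with sums of 3469 to 4308 CPM in NTC IR-1, 5476 to 6978 in NTC IR-2 and 5696 to 6665 in dENL/AF9-IR. Their part in the results on these factors was not tested.

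Other genes of the family were at low levels. yellow-g, which in the fly ovary serves the eggshell, was tested and not called in any pair. Its group means were 0.686 CPM in NTC IR-1, 0.879 in dYEATS2-IR, 0.305 in NTC IR-2 and 0.538 in dENL/AF9-IR. A library held 0 to 44 counts of it. yellow-e2, yellow-e3 and yellow-g2 were hardly present, with at most 4 counts in a library, too few for a test.

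Around y, the 5 nearest tested genes on each side were examined. Those to the left were CG13375, CG12470, Or1a, CG32816 and CG43182, and those to the right lncRNA:CR44753, Cyp4g1, ebo, CR18275 and CG13373. CG32816 spans y on the other strand without sharing an exon. Its level was 13.5, 14.3 and 9.86 CPM in NTC IR-1 and 9.29, 8.70 and 6.37 CPM in dYEATS2-IR. The groups did not overlap, and the log2 fold change was -0.63 (FDR 0.133), against -9.03 for y.

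In dYEATS2-IR against NTC IR-1, 1 of the 10 neighbours was called, where 4.77% of all rows were. This was CG43182, which starts 3442 bp before y. It had 64 to 130 counts (1.87 to 3.65 CPM) in the dYEATS2-IR libraries, 0 counts in every library of NTC IR-1 and dENL/AF9-IR, and 2 counts in all of NTC IR-2. It passed the filter on low counts only through dYEATS2-IR, so its call in that direction was fixed by the filter and is given as a description. DESeq2's Wald test called 3 there, CG43182, Or1a and Cyp4g1, beside 1167 of the 12661 rows. Between dENL/AF9-IR and NTC IR-2, edgeR's quasi-likelihood test called 0 of the 10 and 0% of all rows, and 1 neighbour had an unadjusted p-value below 0.05. DESeq2's Wald test called 0 of the 10 there, and 30 of the 12661 rows. Between the control groups 3 of the 10 were called, where 19.5% of all rows were. CG13375 was higher in NTC IR-2, with a log2 fold change of 0.53, and CG12470 fell by 1.80. Cyp4g1, a cytochrome P450 of the cells that make cuticle hydrocarbons, fell by 3.63 there.

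**Figure D5:**
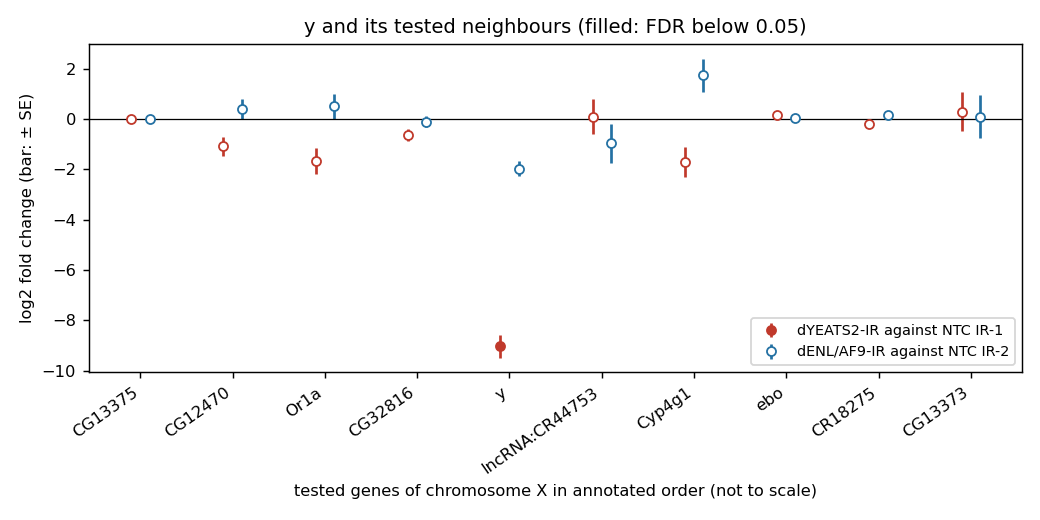
Log2 fold change of y and of 9 of its 10 tested neighbours, in their order along the X chromosome, for each knockdown against its numbered control, with bars of 1 SE either side and filled symbols where the FDR was below 0.05. y is at -9.03 and -1.98, and the neighbours lie between -1.72 and 1.74. CG43182 is left out, since its libraries are at or near 0 in 3 groups.

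The genes whose pattern was most like that of y were ranked by Pearson's r of log2 CPM over the 12 libraries. The highest were an insertion of the transposable element HeT-A (FBti0062856) at r = 0.988, an insertion of the element H (FBti0019181) at 0.972, Mis12, a kinetochore gene, at 0.958, another insertion of H (FBti0019603) at 0.952 and CG12522 at 0.952. They were chosen for this likeness, so that all 5 were lowest in dYEATS2-IR, as y was, follows from the choice. HeT-A is a telomeric element, and this insertion is annotated on X at 109756 to 114008, between y and the tip of the chromosome. It had 10.1 ± 1.45 CPM in NTC IR-1, 0.911 ± 0.0230 in dYEATS2-IR, 8.52 ± 0.609 in NTC IR-2 and 6.26 ± 0.614 in dENL/AF9-IR (SD, n = 3 each). Reads of such repeats can come from other copies, so its counts are uncertain. Mis12 on chromosome 3L had 10.1 ± 0.730 CPM in NTC IR-1, 2.98 ± 0.287 in dYEATS2-IR, 9.09 ± 1.604 in NTC IR-2 and 8.76 ± 0.583 in dENL/AF9-IR. CG12522, also on 3L, had 39 to 62 counts in NTC IR-1 and 0 in every dYEATS2-IR library.

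The same ranking was made for yellow-c, the other member with the highest mean CPM. Its closest genes were Duox, which makes hydrogen peroxide, at r = 0.954, speck, the arylalkylamine N-acetyltransferase that acts on dopamine, at 0.952 and Gasp, a chitin-binding protein, at 0.949. Duox was at 10.6 ± 5.61 CPM in NTC IR-1, 13.2 ± 3.16 in dYEATS2-IR, 16.9 ± 8.05 in NTC IR-2 and 17.2 ± 1.86 in dENL/AF9-IR. As for yellow-c, its spread within both control groups was wide.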

How the data were processed

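Per the labels' protocols, RNA of 50 male heads per replicate went into a strand-keeping TruSeq mRNA kit. Per the submitters' processing notes, FastQC 0.12.0, Trim Galore 0.6.5, HISAT2, SAMtools, UMI-tools, Picard and DESeq2 were used, with builds named BDGP6 and dm6. The counting program and its use of strand are not given in the sources used here. The authors deposited raw counts (23793 rows) and a normalized signal on the count scale (16757 rows), which served to check the column names. In each normalized column, 100% of rows were a constant times a count column of another name (relative tolerance 0.01%) and at most 3.33% times the column of its own name. For NTC IR-2, the labels of replicates 1 and 2 give a column name of NTC IR-1, so columns were assigned by library name.

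The members and lists were chosen with earlier results of these data known. Rows were kept by filterByExpr with the 4 groups (minimum count 10, 12661 rows). All 12 libraries entered 1 quasi-likelihood fit in edgeR 4.0.16 (R 4.3.3, limma 3.58.1) with TMM factors of 0.859 to 1.16 and 8 residual degrees of freedom. Calls were made below 0.05 of the p-value adjusted by Benjamini-Hochberg over all rows tested (FDR). These values come from that test unless DESeq2 1.42.0 is named. The standard error (SE) was derived as the absolute log2 fold change over the root of F. CPM is the count per 1000000 of the TMM-scaled total of tested rows, and CPM per kb divides it by the length of the gene's merged exons in BDGP6.54 (Ensembl release 115), from which coordinates were taken. The scripts were tested on simulated data.

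Named were all members, the genes of the other family, pigmentation and regulator lists that were called in a pair, the 5 tested genes on each side of y, the 5 genes most correlated with y and the 3 most correlated with the other member of highest mean CPM. e, ple, t and genes named to describe a count were added after their values were seen. Alternatives were DESeq2 size factors, DESeq2's Wald test, another filter, no filter, only the compared libraries, the replicate number as a block, and leaving out each library. The other group names were an alternative only for the difference between the knockdown effects.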

Additional observations from a re-analysis of the deposited data

Results flagged for a closer look

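For y, the knockdown effects themselves differed: the effect in dYEATS2-IR minus the effect in dENL/AF9-IR, each against its numbered control, was -7.05 on the log2 scale (SE 0.517). The FDR of this difference, tested as such with edgeR, was 4.54e-05. Both effects were negative, -9.03 and -1.98, and all 3 libraries of each knockdown were below all 3 of its control. The second effect was not called (FDR 0.118). Under the group names of the normalized table the effects have opposite signs, and their difference is -11.00. Of the 9 tested members y was the only one whose effects differed past the threshold. The part of the hairpins in these differences between groups was not tested.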

How the results depend on the processing

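With the names of the normalized table, dYEATS2-IR and NTC IR-1 are the libraries between which y differed by -1.98 and was not called (FDR 0.118). With the names of the count table, the call of y in dYEATS2-IR against NTC IR-1 held under all 12 alternatives. The count of members called there, 2 as reported, was 1 with no filter on low counts, 1 with the replicate block and 1 with only the 6 libraries compared, since yellow-d was lost with its log2 fold change at -1.23, -1.25 and -1.22 beside -1.203, and 1 to 2 when single libraries were left out. For dENL/AF9-IR with its control NTC IR-2, 0 became 1 with DESeq2's Wald test (y), and 0 to 1 without single libraries. Between the controls, 0 became 1 with DESeq2's Wald test and 1 with the 6 libraries alone (yellow-d both times), and 0 to 2 without single libraries: yellow-e and yellow-f were called without NTC IR-2 replicate 3, and yellow-c without NTC IR-1 replicate 3. For dENL/AF9-IR with NTC IR-1 the count, 2 as reported, was 1 to 3 without single libraries, the highest with yellow-c added when NTC IR-1 replicate 3 was left out. The causes of these changes were not tested beyond that. The replicate numbers did not pair the libraries: same-numbered deviations correlated at -0.226 to 0.206 and were above 0.1 in 1 of 18 pairs, and 3 of 12 libraries correlated best with their own number.

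Among these alternatives, sign changes occurred only in log2 fold changes that were not called. The names of the normalized table were applied only to the difference between the knockdown effects. With those names y would be higher in dYEATS2-IR than in NTC IR-2, where it was called lower. The value for yellow-e between dENL/AF9-IR and NTC IR-2 became -0.00376 with DESeq2 size factors and -4.4e-05 with DESeq2's Wald test, and that for yellow-f 0.0085 with the replicate block. Between the controls y became -0.0068 with no filter and -0.0053 with the 6 libraries alone. yellow-f2 between dYEATS2-IR and NTC IR-2 became 0.047 with the replicate block, and the difference between the knockdown effects of yellow-d2 became 0.24 under the names of the normalized table. Leaving out single libraries moved other log2 fold changes across 0, over the ranges that follow. For dYEATS2-IR against NTC IR-1 these were -0.063 to 0.19 for yellow-d2, -0.28 to 0.029 for yellow-h and -0.0086 to 0.86 for yellow-c. For dENL/AF9-IR with its control NTC IR-2 these were -0.16 to 0.37 for yellow-d2, -0.26 to 0.70 for yellow-e, -0.0101 to 0.49 for yellow-h, -0.29 to 0.22 for yellow-c, -0.49 to 0.62 for yellow-f and -0.49 to 0.40 for yellow-f2. Between the controls these were -0.15 to 0.22 for y, -0.42 to 0.11 for yellow-d2, -0.94 to 0.015 for yellow-e and -0.18 to 0.35 for yellow-h. For dYEATS2-IR against NTC IR-2 these were -0.38 to 0.51 for yellow-f2, -0.40 to 0.097 for yellow-b, -0.016 to 0.51 for yellow-d2, -0.11 to 0.82 for yellow-f, -0.55 to 0.41 for yellow-e and -0.48 to 0.025 for yellow-h. For dENL/AF9-IR against NTC IR-1 these were -0.14 to 0.051 for yellow-d2. Between the knockdowns these were -0.013 to 0.23 for yellow-d2, -0.37 to 0.15 for yellow-d and -0.016 to 0.32 for yellow-f2. For the difference between the knockdown effects these were -0.27 to 0.26 for yellow-d2.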
